A study of Oikopleura dioica with 14 samples.

Results

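The 150 genes described here were abundant in wild-type Oikopleura dioica at 4 and 6 hours post fertilization (hpf) and close to undetected at 8 hpf. They were selected on wild-type libraries alone, from the 17212 gene identifiers counted, by conditions on CPM, the count of a gene scaled to a common total per library. A gene had to reach 10 CPM in all 4 wild-type libraries of 4 and 6 hpf and stay under 5 CPM in both wild-type libraries of 8 hpf, and a run of 137 neighbouring identifiers, none of which met these conditions, was left out. Of 802 identifiers that met the first condition, 151 met the second, and the 150 with the highest minimum at 4 and 6 hpf were kept. The 8 mutant libraries took no part in the choice, so what these genes did in the mutants is the readout. All statements on wild-type levels below describe the choice and carry no test.

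The libraries were made from whole animals, raised from single crosses between Pax37b+/- parents, genotyped one by one and combined by genotype. Mutant pools (Pax37b-/-) numbered 2 at 4 hpf, 3 at 6 hpf and 3 at 8 hpf, and wild-type pools (Pax37b+/+) numbered 2 at each stage. The pools are labelled as biological replicates without a statement on separate crosses, so the spread between them may be partly technical. Total counts ran from 2803712 to 15682947 per library. The smallest totals were those of the 4 hpf libraries, so stage and depth go together in these data. The identifiers carry no gene names in the files, and 0 were found among the 17178 genes of the reference table. The genes are therefore given by identifier without a role, and Pax37b itself was not analysed here.

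Oikopleura dioica is a planktonic tunicate that completes embryonic development within hours and lives in a secreted house made by its epithelium. Pax37b encodes a transcription factor of the Pax3/7 family, whose members in chordate embryos mark the border of the neural plate and the dorsal nerve cord. The message of a gene used only for a short period of development disappears once transcription stops and the remaining transcripts are degraded. In pools of whole animals, fewer cells of a type and less RNA per cell cannot be told apart.

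In wild type the choice left a wide range of levels. The lowest of the 4 levels at 4 and 6 hpf was 536 CPM for the highest-ranked gene, 50.5 CPM for the median gene and 10.3 CPM for the last gene taken. The gene just outside stood at 10.1 CPM. The highest level reached by a chosen gene at 8 hpf was 4.97 CPM, and the nearest gene outside that limit reached 5.16 CPM. In 113 of the 150 genes both wild-type libraries of 8 hpf were under 1 CPM, and 13 genes were at 2 CPM or more in at least 1 of them.

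In the mutants most of these genes were also low at 8 hpf, but fewer than in wild type and not the same ones in each pool. Under 5 CPM were 123 genes (82.0%) in mutant replicate 1, 112 (74.7%) in replicate 2 and 129 (86.0%) in replicate 3, or 80.9% ± 5.75 (SD, n = 3). In wild type the choice put all 150 there. As a reference, 352 identifiers were taken that met the same condition at 4 and 6 hpf and were also at 10 CPM or more in both wild-type libraries of 8 hpf. Of these 35.8%, 27.6% and 56.5% were under 5 CPM in the 3 mutant pools, or 40.0% ± 14.9 (SD, n = 3). The share was higher among the shut-off genes than among the genes kept on in wild type in each of the 3 pools. Of all identifiers, 88.6%, 84.2% and 94.1% were under 5 CPM in these pools.

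**Figure D1:**
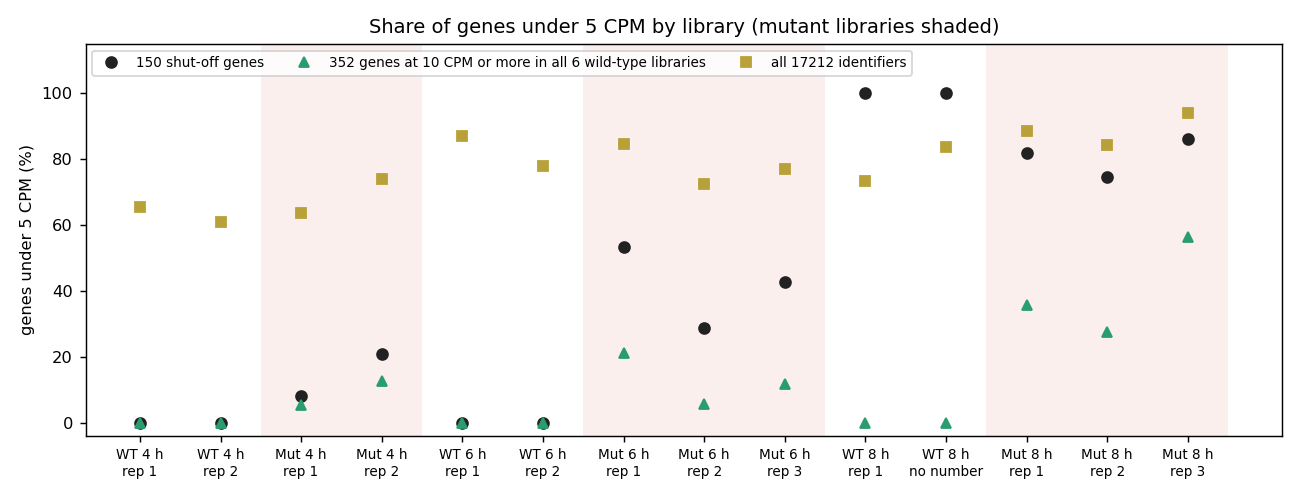
Share of genes under 5 CPM (y axis, percent) in each of the 14 libraries (x axis) for the 150 shut-off genes (circles), the 352 genes at 10 CPM or more in all wild-type libraries (triangles) and all identifiers (squares), with mutant libraries shaded. The circles of the 3 mutant 8 hpf libraries lie between 74.7% and 86.0%, above the triangles of the same libraries, and the circles and triangles of wild type are fixed by the choice.

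The difference between the shut-off and the kept-on genes held at each starting level. Among genes whose lowest wild-type level at 4 and 6 hpf was 10 to 20 CPM, 84.4% of the shut-off and 50.8% of the kept-on genes were on average under 5 CPM in the mutants at 8 hpf. The shares were 84.1% and 53.9% at 20 to 50 CPM and 79.3% and 48.8% at 50 to 100 CPM. At 100 CPM or more they were 76.1% ± 10.4 and 28.8% ± 11.7 (SD, n = 3 pools), for 39 and 177 genes. The ranges over the pools did not overlap in any of these bands, but at 50 to 100 CPM they all but touched. There they were 70.27% to 83.78% for the shut-off and 35.82% to 70.15% for the kept-on genes. In the highest band they were 66.7% to 87.2% for the shut-off and 18.1% to 41.2% for the kept-on genes. In the bands under 100 CPM the SD over the pools was 6.25, 1.37 and 7.80 for the shut-off genes. For the kept-on genes it was 17.0, 19.0 and 18.7. Scaling mattered for the share itself, since on library sizes from DESeq2-type median ratios (RLE) it was 60.9% ± 11.7 in the shut-off and 23.6% ± 1.14 in the kept-on genes.

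The genes that were low differed between the mutant pools of 8 hpf. In 84 of the 150 genes (56.0%) all 3 pools were under 5 CPM, against 51 of the 352 kept-on genes (14.5%) and 75.8% of all identifiers. At 10 CPM or more were 25 genes in replicate 1, 33 in replicate 2 and 15 in replicate 3. Replicates 1 and 2 had 8 of these genes in common, 32.0% of the first list and 24.2% of the second. Replicates 1 and 3 shared 6 (24.0% and 40.0%) and replicates 2 and 3 shared 5 (15.2% and 33.3%). A level of 10 CPM was reached in no pool by 92 genes, in 1 pool by 47, in 2 pools by 7 and in all 3 pools by 4. Without replicate 3 the number in all remaining pools was 8. The same line was reached in all 3 pools by 94 of the 352 kept-on genes (26.7%). Of all identifiers, 78.4% reached 10 CPM in no pool, 16.2% in 1, 4.21% in 2 and 1.23% in all 3. The shares of the 150 genes were 61.3%, 31.3%, 4.67% and 2.67%.

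Values at 8 hpf lay mostly at the 2 ends of the scale, for these genes as for all identifiers. Of the 25, 33 and 15 genes at 10 CPM or more in the 3 mutant pools, 15, 24 and 9 were at 100 CPM or more. Over all identifiers these were 1189 of 1728, 1471 of 2377 and 547 of 766. Of the 450 values of these genes in the mutant pools, 364 were under 5 CPM, 48 were at 100 CPM or more and 38 lay between. At least 1 pool was at 100 CPM or more for 40 genes and at 1000 CPM or more for 13 genes. Neither number was counted over all identifiers, so neither is read as particular to these genes. In the single pools 178, 187 and 103 of the 352 kept-on genes were at 100 CPM or more. The next 3 genes, named after their values were seen, show how uneven the pools were. GSOIDG00001833001 measured 1.40, 3.28 and 5144 CPM in the 3 mutant pools of 8 hpf, GSOIDG00014578001 measured 1.32, 2894 and 2.55 CPM, and GSOIDG00012042001 measured 0.389, 2300 and 2.74 CPM. Each was high in 1 pool and under 5 CPM in the other pools, and in wild type none of the 3 exceeded 1.12 CPM at 8 hpf.

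**Figure D2:**
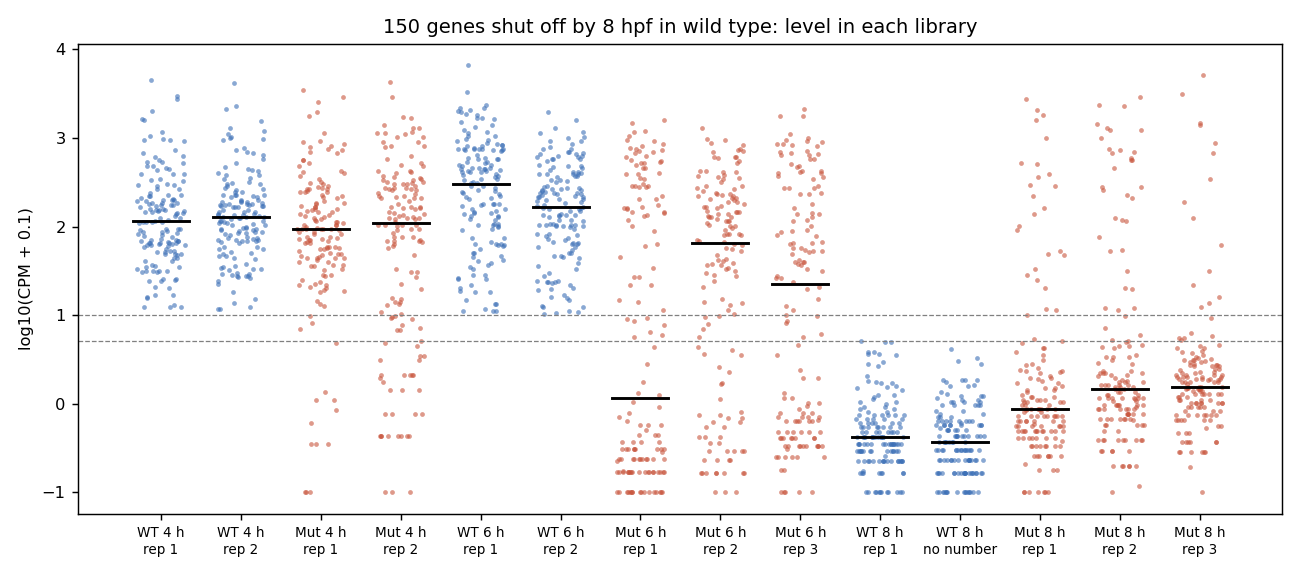
Level of each of the 150 genes (points, log10 of CPM + 0.1) in each of the 14 libraries, wild type in blue and mutant in red, with the median as a black bar and dashed lines at 10 and 5 CPM. In the mutant 8 hpf libraries the medians lie at 0.778, 1.35 and 1.46 CPM, with a scatter of genes up to 5144 CPM that wild type lacks by choice.

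As a sum over the 150 genes, the mutant pools of 8 hpf held 12651, 20769 and 13703 CPM, against 97.7 and 72.2 CPM in wild type, where the choice capped each gene. Few genes made up the mutant sums. The largest 3 genes held 50% of the sum in replicate 1, the largest 6 in replicate 2 and the largest 2 in replicate 3. At 4 and 6 hpf between 12 and 24 genes were needed for the same part of the sum in every library of either genotype. The median level of the 150 genes at 8 hpf was 0.778, 1.35 and 1.46 CPM in the mutants and 0.319 and 0.268 CPM in wild type. The median over all 17212 identifiers was 0.467, 0.870 and 0.639 CPM in the mutants and 0.319 and 0.201 CPM in wild type, so low values were higher in the mutant pools over the whole table as well.

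The levels before 8 hpf are given as a description, since the choice fixed the wild-type values there. At 4 hpf 135 and 110 of the 150 genes were at 10 CPM or more in the 2 mutant pools, 104 of them in both, and their median level was 93.0 and 108.6 CPM against 114.0 and 128.3 CPM in wild type. At 6 hpf the numbers were 63, 102 and 80 genes in the 3 mutant pools. Median levels there were 1.06, 64.8 and 22.1 CPM, against 298 and 164.5 CPM in wild type. All 3 mutant pools of 6 hpf were at 10 CPM or more for 30 of the 150 genes, against 242 of the 352 kept-on genes (68.8%). Without replicate 1 the numbers were 55 and 289, and without replicate 3 they were 51 and 263. Mutant replicate 1 of 6 hpf was the lowest of the 3, with 80 genes (53.3%) under 5 CPM against 43 and 64 in the others, and it was also lowest for the kept-on genes, with 21.0% under 5 CPM against 5.68% and 11.6%.

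**Figure D3:**
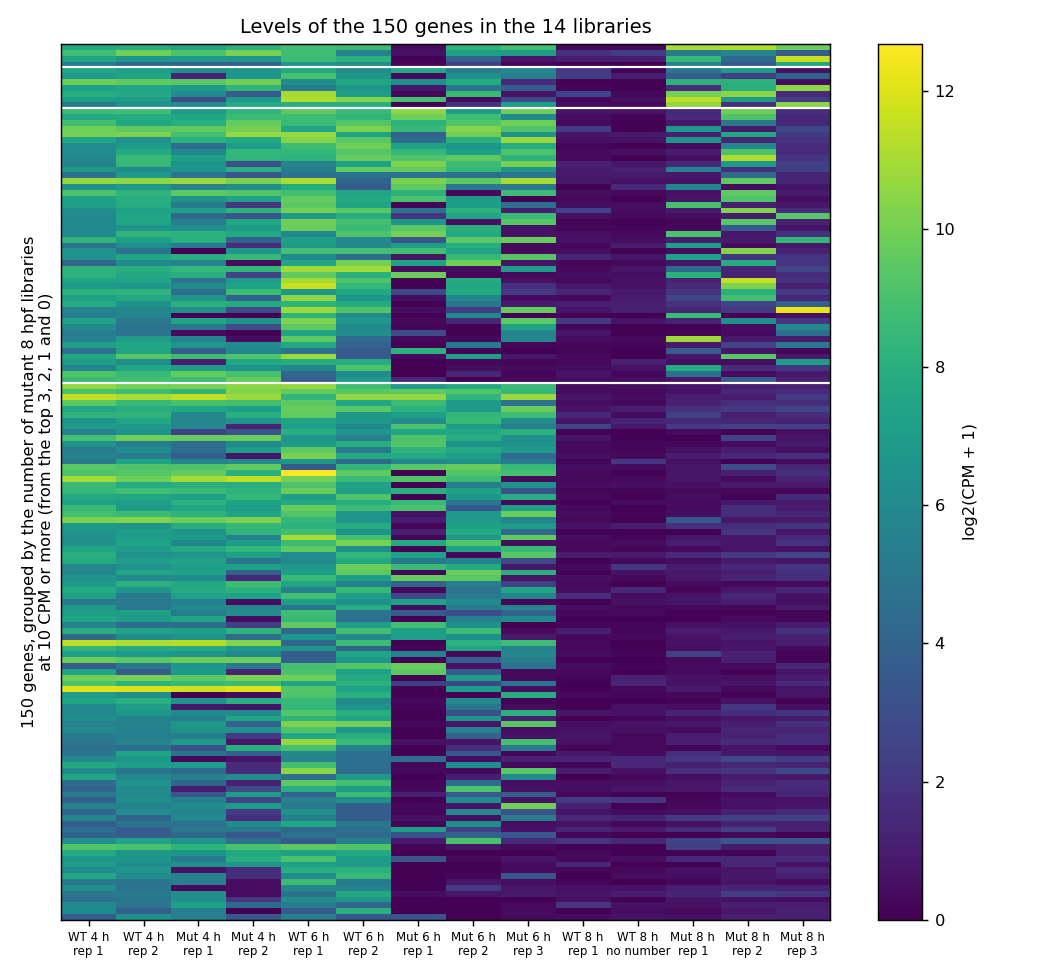
Heat map of the 150 genes (rows) in the 14 libraries (columns), colour giving log2 of CPM + 1 and rows grouped by the number of mutant 8 hpf libraries at 10 CPM or more, 3, 2, 1 and 0 from the top, with white lines between the groups of 4, 7, 47 and 92 genes. High values of the mutant 8 hpf libraries fall on different rows in different libraries, and dark cells are more frequent in the mutants at 6 than at 4 hpf.

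Mutant and wild-type levels were set side by side at each stage without a test, because the choice fixed the wild-type values. At 4 hpf both mutant pools were below both wild-type pools for 35 of the 150 genes (23.3%), where 12.0% of all identifiers met the same criterion, and above for 12 genes (background 9.12%). At 6 hpf all 3 mutant pools were below both wild-type pools for 59 genes (39.3%, background 16.5%) and above for 2 genes (background 3.39%). At 8 hpf all 3 mutant pools were above both wild-type pools for 90 genes (60.0%, background 35.7%) and below for 2 genes (background 6.18%). Since genes were taken for being high at 4 and 6 hpf and low at 8 hpf in wild type, nothing is read from these counts. The genes GSOIDG00003303001 and GSOIDG00000816001, named after their values were seen, were the only 2 of the 150 under 5 CPM in all 8 mutant libraries. Over all identifiers this was counted by stage. Under 5 CPM in every mutant pool were 57.7% of them at 4 hpf, 58.7% at 6 hpf and 75.8% at 8 hpf. GSOIDG00003303001 measured 0.507 and 2.02 CPM in the mutants at 4 hpf against 70.3 and 96.9 CPM in wild type. GSOIDG00000816001 measured 0.254 and 0.336 CPM against 75.3 and 27.7 CPM. The wild-type values of both genes were set by the choice.

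The change from 6 to 8 hpf within the mutants took no part in the choice. It was tested with edgeR's quasi-likelihood test on the 8 mutant libraries, with Benjamini-Hochberg adjustment over the 10873 identifiers that passed the filter on low counts. Of the 150 genes, 148 passed that filter. The median log2 fold change from 6 to 8 hpf was -4.26 over these 148 genes, -1.33 over the kept-on genes and -0.41 over all identifiers tested, and 117 of the 148 were below 0. In the edgeR test none of the 148 genes passed an adjusted p of 0.05, and none of the 10873 identifiers did (background 0%). The smallest adjusted p was 0.121, both among these genes and over all identifiers. At an unadjusted p under 0.05, 50 genes were lower (33.8%, background 19.1%) and 5 were higher (background 17.1%) at 8 hpf. With RLE factors 27 genes were lower (18.2%) and 8 higher, against 1312 and 2306 of the 10873 identifiers. With upper-quartile factors 9 genes were lower (6.08%) and 15 higher, against 442 and 3871 of the 10873. Without mutant replicate 1, 2 or 3 of 8 hpf 20, 23 and 22 genes were lower (13.6%, 15.6% and 15.1%). Of all identifiers, 617 of 10121, 603 of 9968 and 596 of 10206 were lower in these fits. DESeq2, run as another tool, gave an adjusted p for 84 of the 150 genes and called 37 lower (background 11.5%) and 4 higher (background 4.38%). The biological coefficient of variation was 1.59 in the mutant libraries, so the spread between pools of a stage exceeded a gene's mean level.

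Over all 150 genes, without a filter, the mean level on the log2(CPM + 1) scale differed between 6 and 8 hpf by a median of -3.44 in the mutants, with 116 genes lower and 34 higher. The same median was -0.69 over the 352 kept-on genes and 0.25 over all identifiers. Few genes were separated by every pool. Every mutant 8 hpf pool lay below every mutant 6 hpf pool for 29 genes (19.3%), a criterion met by 17.6% of the kept-on genes and 3.59% of all identifiers. Without mutant replicate 1 of 6 hpf the number was 56 (37.3%), with 27.8% of the kept-on genes and 9.42% of all identifiers. Without replicate 2 or 3 of 6 hpf the shares were 22.0% and 26.7%, against 21.9% and 23.9% of the kept-on genes. Without replicate 1, 2 or 3 of 8 hpf they were 21.3%, 24.7% and 22.7%, against 26.1%, 29.5% and 22.2%. Of all identifiers 4.12% to 6.18% met the criterion with any of these 5 libraries left out. Every 8 hpf pool lay above every 6 hpf pool for 10 genes (6.67%, background 35.9%). Without mutant replicate 1 of 6 hpf this held for 16 genes (10.7%, background 39.2%). The number was 28 without replicate 2 (18.7%, background 45.6%) and 19 without replicate 3 of 6 hpf (12.7%, background 47.8%).

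From 4 to 8 hpf the shut-off genes were again lower in the mutants than the kept-on genes, by median. The median log2 fold change was -3.77 over the 148 genes, 0.56 over the kept-on genes and 0.37 over all identifiers tested. Below 0 were 112 of the 148 (75.7%), 42.2% of the kept-on genes and 47.8% of all identifiers tested. With RLE factors these medians were -1.79, 2.49 and 2.25, and with upper-quartile factors -0.33, 4.09 and 3.87. In these 2 fits 92 and 80 of the 148 genes were below 0 (62.2% and 54.1%). Of the kept-on genes 22.8% and 13.1% were, and of all identifiers 36.8% and 27.0%. edgeR called 654 identifiers (background 6.01%), 48 of them lower (0.441%) and 606 higher (5.57%) at 8 hpf, and none of the 148 genes in either direction. The smallest adjusted p among these genes was 0.0559. At an unadjusted p under 0.05, 32 genes were lower (21.6%, background 11.1%) and 1 was higher (background 18.8%). RLE factors gave 13 lower (8.78%) and 4 higher, against 402 and 2679 of the 10873 identifiers. Upper-quartile factors gave 2 lower (1.35%) and 6 higher, against 101 and 3240 of the 10873. Without mutant replicate 1, 2 or 3 of 8 hpf the lower genes numbered 9, 12 and 12 (6.12%, 8.16% and 8.22%). Of all identifiers, 229 of 10121, 259 of 9968 and 301 of 10206 were lower there. Without replicate 1, 2 or 3 of 6 hpf the lower genes numbered 51, 56 and 56 (34.5%, 38.4% and 37.8%). Of all identifiers, 1602 of 10249, 2122 of 9937 and 1990 of 10077 were lower in those fits. DESeq2 called 20 lower (background 4.28%) and 7 higher (background 23.9%) among the 84 it adjusted. Of 285 kept-on genes it called 75, 15 of them lower. The 654 calls over all identifiers fell to 62 or fewer when any mutant library was left out. Every 8 hpf pool lay below both 4 hpf pools for 92 genes (61.3%), against 32.1% of the kept-on genes and 18.7% of all identifiers. The reverse held for 4 genes (background 34.0%).

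From 4 to 6 hpf the same genes showed no common direction in the mutants. The median log2 fold change was 0.96 over the 148 genes and 1.78 over all identifiers, and edgeR called no gene among the 148 and none of the identifiers (background 0%), with 10 of the 148 lower (background 13.7%) and 3 higher (background 13.8%) at an unadjusted p under 0.05. Without mutant replicate 2 of 6 hpf 20 genes were lower (13.7%), against 1733 of 9937 identifiers. DESeq2 called 6 lower (background 13.3%) and 9 higher (background 17.8%) of the 84 it adjusted. Of 284 kept-on genes it called 83, 1 of them lower. On the log2(CPM + 1) scale over all 150 genes the median difference was -0.39 in the mutants and, by a choice that kept both stages high, 0.85 in wild type. The sign of the median thus differed between the scales. All 3 mutant pools of 6 hpf lay below both 4 hpf pools for 44 genes (29.3%, background 15.2%) and above for 4 genes (background 10.7%).

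**Figure D4:**
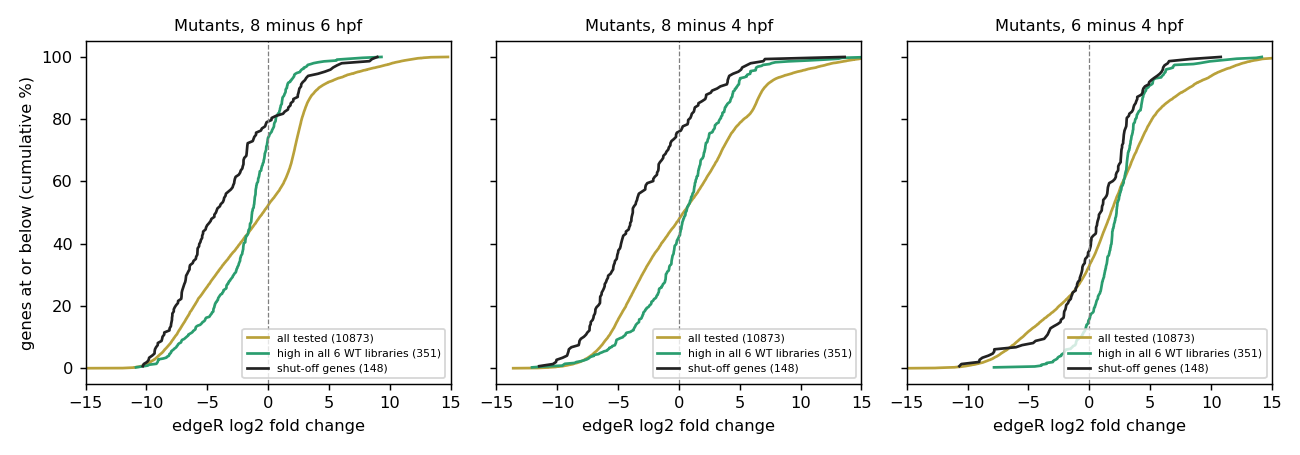
Cumulative share of genes (y axis, percent) at or below each edgeR log2 fold change (x axis) between stages in the mutant libraries, for the 148 shut-off genes tested (black), the 351 kept-on genes tested (green) and all 10873 identifiers tested (yellow). Below a log2 fold change of 0 the black line lies left of the others for 8 minus 6 hpf and 8 minus 4 hpf, with medians of -4.26 and -3.77, and near the yellow line for 6 minus 4 hpf.

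Genes that followed the wild-type course in the mutants formed a small set. In all 5 mutant libraries of 4 and 6 hpf 25 of the 150 genes were at 10 CPM or more, and 9 of these 25 (36.0%) were under 5 CPM in all 3 mutant pools of 8 hpf. These numbers depended on single pools, with 24 of 46 genes without mutant replicate 1 of 6 hpf, 18 of 39 without replicate 3 of 6 hpf and 19 of 25 without replicate 2 of 8 hpf. Among the kept-on genes 14 of 220 with the same early levels (6.36%) were that low, and among all identifiers outside the 150 genes 163 of 638 (25.5%). None of the 150 genes stayed at 10 CPM or more in all 8 mutant libraries. The clearest of the 9 was GSOIDG00005520001, which among all members had the smallest p for a lower level at 8 than at 6 hpf. It measured 2925 and 1725 CPM in the mutants at 4 hpf, 1571, 321 and 1767 CPM at 6 hpf, and 0.934, 0.869 and 3.47 CPM at 8 hpf. Wild type stood at 2956 and 2121 CPM, then 320 and 1597 CPM, then 0.638 and 0.335 CPM. The mutant pools of 6 and 8 hpf did not overlap, and the log2 fold change was -9.81 with an SE of 3.04 (edgeR adjusted p = 0.121, DESeq2 adjusted p = 6.28e-07). Another 2 of the 9, named after their values were seen, were GSOIDG00008481001, at 117, 208 and 368 CPM at 6 hpf and 0.749, 1.02 and 1.28 CPM at 8 hpf in the mutants, and GSOIDG00004377001, at 735, 595 and 346 CPM and then 0.467, 1.55 and 1.92 CPM.

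The genes with the lowest mutant ceiling at 8 hpf, among those at 100 CPM or more in at least 1 mutant pool of each earlier stage, were GSOIDG00003358001 and GSOIDG00015621001. In the mutants GSOIDG00003358001 measured 400 and 298 CPM at 4 hpf, 276, 165 and 7.98 CPM at 6 hpf, and 0.234, 0.193 and 0.182 CPM at 8 hpf, where wild type stood at 0.128 and 0.134 CPM. Replicate 3 of 6 hpf was the low one, yet all 6 hpf pools stayed above all 8 hpf pools, with a log2 fold change of -10.22 with an SE of 3.71 (edgeR adjusted p = 0.121). GSOIDG00015621001 measured 216 and 334 CPM in the mutants at 4 hpf, 0.0682, 163 and 406 CPM at 6 hpf, and 0.233, 0.580 and 0.547 CPM at 8 hpf. Here replicate 1 of 6 hpf lay below every 8 hpf pool, and the log2 fold change was -8.67 with an SE of 3.58 (edgeR adjusted p = 0.121). DESeq2 called both genes, with adjusted p of 1.55e-06 and 6.33e-04. GSOIDG00014165001 had the smallest p for a lower level at 8 than at 4 hpf. It measured 3493 and 4225 CPM in the mutants at 4 hpf, close to the 4466 and 4165 CPM of wild type, then 0, 123 and 0.383 CPM at 6 hpf and 0.856, 0.193 and 0.639 CPM at 8 hpf. The pools of 4 and 8 hpf were far apart, with a log2 fold change of -11.46 with an SE of 3.73 (edgeR adjusted p = 0.0559), while wild type still held 635 and 157 CPM at 6 hpf.

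Other genes were low in the mutants at 6 hpf already. The 2 genes with the highest minimum in wild type show both courses. GSOIDG00001010001 measured 786 and 269 CPM in the mutants at 4 hpf, 0.0682, 609 and 467 CPM at 6 hpf, and 0.623, 1.06 and 2.37 CPM at 8 hpf, against 6584 and 741 CPM at 6 hpf and 0.255 and 0.0670 CPM at 8 hpf in wild type. Replicate 1 of 6 hpf lay below the 8 hpf values and the others were far above them, with a log2 fold change of -7.87 with an SE of 3.38 (edgeR adjusted p = 0.122, DESeq2 adjusted p = 4.06e-03). GSOIDG00009141001 measured 299 and 522 CPM in the mutants at 4 hpf and 0.136, 0.582 and 0.230 CPM at 6 hpf, while wild type held 748 and 611 CPM at 6 hpf. All 3 mutant pools were low at 6 hpf, where the choice kept wild type high. At 8 hpf the mutants stood at 4.20, 0.869 and 1.09 CPM and wild type at 0 in both libraries, and the change from 6 to 8 hpf in the mutants was 2.56 on the log2 scale with an SE of 2.64 (edgeR adjusted p = 0.445). Of the 150 genes, 10 were under 5 CPM in every mutant library of both 6 and 8 hpf, 23 without replicate 2 of 6 hpf and 18 without replicate 3 of 6 hpf. Over all identifiers this was counted for each stage alone. At 6 hpf all 3 mutant pools were under 5 CPM for 15 of the 150 genes (10.0%). The same held for 0.568% of the kept-on genes and 58.7% of all identifiers. At 8 hpf the 3 shares were 56.0%, 14.5% and 75.8%.

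GSOIDG00010561001 had the smallest p for a lower level at 6 than at 4 hpf. It measured 82.4 and 3.03 CPM in the mutants at 4 hpf, 0 in all 3 pools at 6 hpf and 0.623, 0.483 and 0.274 CPM at 8 hpf, and 73.2 and 105.2 CPM in wild type at 6 hpf. With 3 counts over the 6 hpf group as a floor (0.0695 CPM) the mean was at least 615-fold lower at 6 than at 4 hpf, and the edgeR adjusted p was 0.105. The 2 pools of 4 hpf differed widely from each other in this gene, and the bound was 43.5-fold without replicate 1 and 1186-fold without replicate 2. GSOIDG00017226001 had the smallest p for a higher level at 6 than at 4 hpf, with 0.254 and 0 CPM in the mutants at 4 hpf and 6.41, 0.0647 and 52.5 CPM at 6 hpf (edgeR adjusted p = 0.166). Only 1 count lay behind the 4 hpf values, so no fold is given. At 8 hpf it stood at 0.156, 0.290 and 21.8 CPM.

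In all 3 mutant pools of 8 hpf, 4 genes were at 10 CPM or more. GSOIDG00017106001 had the highest mutant minimum at 8 hpf of all 150 genes. It measured 2081, 2329 and 877 CPM in the mutants against 0.255 and 0.201 CPM in wild type at 8 hpf, and every mutant pool lay above the wild-type levels of the earlier stages, 207 and 228 CPM at 4 hpf and 447 and 371 CPM at 6 hpf. Within the mutants it stood at 168 and 264 CPM at 4 hpf and 0.273, 289 and 477 CPM at 6 hpf, below every 8 hpf pool, and the log2 fold change from 6 to 8 hpf was 2.71 with an SE of 2.33 (edgeR adjusted p = 0.358). GSOIDG00007615001 measured 362, 19.4 and 3106 CPM in the mutants against 0.956 and 0.937 CPM in wild type at 8 hpf. At 6 hpf the mutants held 0.0762, 13.7 and 0.614 CPM and wild type 415 and 284 CPM. The mutant pools of 6 and 8 hpf did not overlap, although those of 8 hpf were widely spread, and this gene had the smallest p for a higher level at 8 than at 6 hpf, with a log2 fold change of 8.32 with an SE of 3.16 (edgeR adjusted p = 0.121, DESeq2 adjusted p = 3.25e-06).

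The other two, named after their values were seen, were lower. GSOIDG00010849001 measured 33.5, 54.4 and 12.2 CPM in the mutants at 8 hpf against 2.55 and 4.08 CPM in wild type, after 0.546, 147 and 139 CPM in the mutants at 6 hpf. GSOIDG00007462001 measured 48.8, 11.2 and 187 CPM in the mutants at 8 hpf and was at 0 in both wild-type libraries, after 0.128, 4.31 and 0.153 CPM in the mutants at 6 hpf. GSOIDG00009186001 had the smallest p for a higher level at 8 than at 4 hpf but rested on 1 pool. It was at 0 in both mutant pools of 4 hpf, which with 3 counts over the group allows up to 0.434 CPM, and stood at 391, 0.0966 and 0.547 CPM at 8 hpf (edgeR adjusted p = 0.127).

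**Figure D5:**
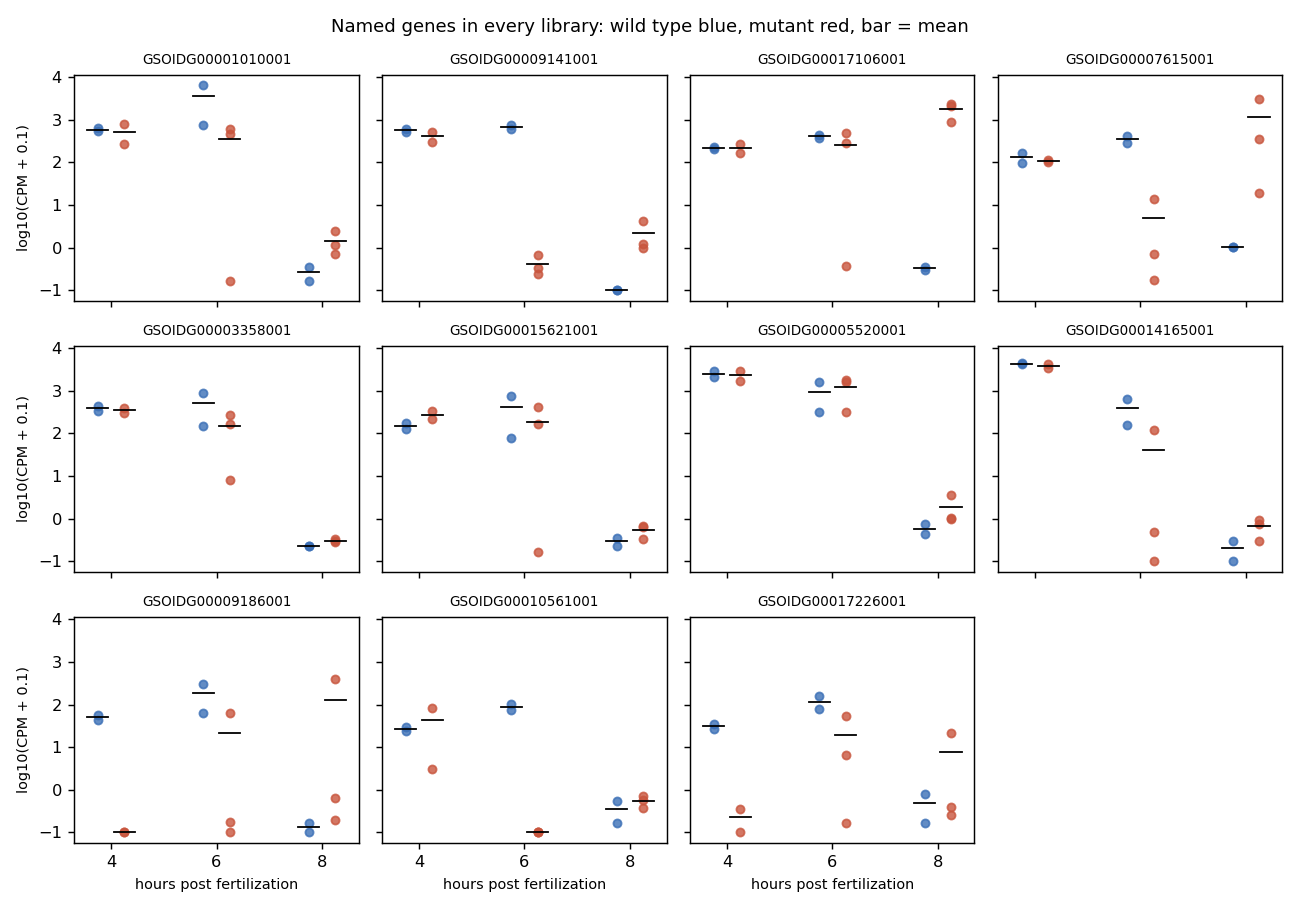
Levels of 11 named genes (1 per panel, log10 of CPM + 0.1 against hours post fertilization) in every library, wild type in blue and mutant in red, with the mean of each group as a bar. GSOIDG00017106001 and GSOIDG00007615001 are high at 8 hpf in all 3 mutant pools, while GSOIDG00005520001 and GSOIDG00003358001 are low in both genotypes at 8 hpf.

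The 150 genes did not lie in a run. Their identifier numbers ran from 131 to 18097, 1 pair was adjacent in the table and 3 pairs had 1 identifier between them, with a median gap of 80 rows. When the table was divided into 6 stretches of equal length, the stretches held 29, 25, 25, 26, 20 and 25 of these genes. The identifiers come without coordinates, so a place in the table is not a place in the genome.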

How the data were processed

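Polyadenylated RNA of pooled whole animals was sequenced with a low-input kit, as the protocols in the labels state. For each stage the authors deposited a table of estimated counts per identifier and library, neither scaled nor pooled, and kallisto 0.46.0 and DESeq2 are named in the submitters' processing notes. For the transcript index and annotation the sources used here give nothing. Fractional values made up 4.37% to 11.3% of a library, and all were rounded before testing. Where near-identical gene copies divide reads, their counts are uncertain. The number of a wild-type column of 8 hpf fits no titled sample, and the column was used as an unnumbered replicate of its group. No library repeated another of its stage (chi-square per degree of freedom at least 102).

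The genes, the reference set and the tests were chosen with earlier results of these data known. CPM used column totals. Tests used edgeR 4.0.16 in R 4.3.3 on the 8 mutant libraries (3 stage means, filterByExpr, TMM, quasi-likelihood F test, two-sided, Benjamini-Hochberg over all identifiers tested, threshold 0.05). Standard errors are the log2 fold change divided by the square root of the F statistic. The procedure was also run on simulated counts with planted changes, and no result here rests on that run. Alternatives were DESeq2 1.42.0 on all identifiers, upper-quartile and RLE factors, limma-voom (limma 3.58.1), other filters, a fit of all 14 libraries, a replicate block, thinned counts, other CPM lines and leaving out each mutant library. Separation and pattern counts without each library were added after the data were seen. Floors cover counting error only, since amplified reads without molecular identifiers are not independent molecules. Named genes were the 2 with the highest wild-type minimum, the 2 with the highest mutant minimum at 8 hpf, the 2 with the lowest mutant maximum at 8 hpf among those at 100 CPM or more in at least 1 mutant library of each earlier stage, and the smallest p in each direction for each contrast. Those chosen after their values were seen are marked. Tables and figures used Python 3.11.15, numpy 2.4.6, pandas 2.3.3 and matplotlib 3.10.9.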

Additional observations from a re-analysis of the deposited data

Results flagged for a closer look

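In 10 of the 150 genes every mutant pool of 8 hpf lay above every mutant pool of 6 hpf, the opposite of the wild-type course by which the genes were chosen. The difference between the genotypes was not tested, because the choice fixed the wild-type values, and 35.9% of all identifiers met the same criterion in the mutants. Of the 10 genes, 5 were under 5 CPM in all 3 mutant pools of 8 hpf, 3 were at 10 CPM or more in all of them and 1 was at 100 CPM or more in all of them.

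Among the named genes, GSOIDG00017106001 stood at a mean of 1762 CPM and GSOIDG00007615001 at a mean of 1162 CPM in the mutants at 8 hpf, opposite to wild type. GSOIDG00009141001 (mean 2.06 CPM) and GSOIDG00010561001 (mean 0.46 CPM) met the criterion at levels under the 5 CPM line, from lower values at 6 hpf.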

How the results depend on the processing

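The share of the 150 genes under 5 CPM in the mutants at 8 hpf was 80.9%, 60.9% with RLE library sizes and between 78.3% and 84.0% in the 9 other settings tried, the single libraries left out included. Calls depended on the tool, the scaling and single libraries. From 6 to 8 hpf edgeR called 0 identifiers, upper-quartile factors 1587, DESeq2 1438 and limma-voom 31, of which 6, 41 and 1 were among the 150 genes. With upper-quartile factors 1580 of the calls and all 6 of the 150 genes were higher at 8 hpf, while DESeq2 called 37 of the 41 lower. From 4 to 8 hpf edgeR called 654, RLE factors 823, upper-quartile factors 838, DESeq2 3017 and limma-voom 40. The fits with no low-count filter, with a mean of at least 5 CPM, of all 14 libraries and of thinned counts gave 0 each. Leaving out a library gave 0 to 62. DESeq2 called 27 and limma-voom 1 of the 150 genes there. From 4 to 6 hpf edgeR called 0, RLE 25, upper-quartile factors 32, DESeq2 2212, limma-voom 103 and no filter 104. Leaving out a library gave 0 to 831 there, the highest without mutant replicate 2 of 4 hpf. Of the 150 genes, upper-quartile factors called 1, DESeq2 15, limma-voom 1 and the fits with a library left out 0 to 2. Scaling moved the median log2 fold change of all identifiers from 6 to 8 hpf from -0.41 to 0.59 (RLE) and 2.90 (upper quartile). The median of the 148 genes moved from -4.26 to -2.98 and -1.0, so under these scalings it stayed 3.57 to 3.89 below that of all identifiers. Over all settings run, the median of the shut-off genes minus that of all identifiers ranged from -5.902 (DESeq2) to -2.165 (thinned counts). The number of genes with every 8 hpf pool below every 6 hpf pool was 29, and 32 to 56 with a library left out. The causes were not tested.

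With the replicate block the counts of identifiers called were 1 from 4 to 8 hpf and 7 from 4 to 6 hpf, with none of the 150 genes. Replicate numbers did not pair the libraries, since correlations of same-numbered mutant libraries across stages ran from -0.0155 to 0.025 and those of differently numbered ones from -0.0195 to 0.017.

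No direction of the 8 named genes followed by fold change reversed in any setting run. The smallest totals, at 4 hpf, limit how low a level can be read there.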
